A study of Homo sapiens with 21 samples.

Results

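The metallothioneins are a family of very small, cysteine-rich proteins that hold zinc and copper ions in the cell, and 6 of their genes, *MT1E*, *MT1F*, *MT1G*, *MT1M*, *MT1X* and *MT2A*, were followed through a TGFβ time course. They were chosen by gene symbol from the 23201 symbols in the data, and all 6 were found. The cells were HMLE, human mammary epithelial cells that were immortalized and are kept as an established line. The study, on chemotherapy resistance in triple-negative breast cancer, used this time course to examine its signature genes. The cells undergo epithelial-to-mesenchymal transition (EMT) under TGFβ. Libraries came from untreated cells (d0) and from cells on days 1, 4, 7, 10, 15 and 20 of TGFβ (d1 to d20), with 3 libraries at each of the 7 timepoints and 21 in all. All groups were this 1 line, seeded at one density, and no untreated culture was sampled beside the later days, so that TGFβ and time in culture cannot be told apart. The dose of TGFβ is not given in the sources used here.

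Metallothioneins buffer free zinc, and their genes are classic readouts of it. Zinc that enters the cell binds the sensor MTF1, which then binds short metal response elements in metallothionein promoters and in that of *SLC30A1*, the zinc exporter of the plasma membrane. Metallothionein genes are also known to respond to glucocorticoids, which are common in mammary culture media, and to oxidants and heavy metals. *MT2A* is the principal metallothionein of many human cells, *MT1E*, *MT1F*, *MT1G*, *MT1M* and *MT1X* are isoforms of the MT1 group, and *MT1L* is a transcribed pseudogene of the same cluster.

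The genes lie side by side on chromosome 16. In the GENCODE annotation (release 29, GRCh38), 16 metallothionein genes and pseudogenes follow one another there in the order *MT4*, *MT3*, *MT2A*, *MT1L*, *MT1E*, *MT1M*, *MT1JP*, *MT1A*, *MT1DP*, *MT1CP*, *MT1B*, *MT1F*, *MT1G*, *MT1H*, *MT1IP* and *MT1X*, and *MT1G* alone is read from the opposite strand. *MT2A* and *MT1X*, the pair whose values parted most during the time course, thus stand near opposite ends. Each of the 6 coding sequences had 186 bases, with 61 codons before the stop, and 20 of these codons (32.8%) encoded cysteine in every member. The coding sequences of *MT2A*, of *MT1X*, which moved against it after d7, and of *MT1G*, which was the most similar to it, are shown to let the closeness of the family be seen. They are the spliced sequences of the principal GENCODE transcripts, from start to stop codon, and capitals mark bases that differ from *MT2A*.
MT2A: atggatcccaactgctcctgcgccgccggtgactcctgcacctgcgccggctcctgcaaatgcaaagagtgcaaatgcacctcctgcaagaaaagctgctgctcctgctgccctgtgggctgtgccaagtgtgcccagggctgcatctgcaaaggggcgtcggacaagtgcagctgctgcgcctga
MT1X: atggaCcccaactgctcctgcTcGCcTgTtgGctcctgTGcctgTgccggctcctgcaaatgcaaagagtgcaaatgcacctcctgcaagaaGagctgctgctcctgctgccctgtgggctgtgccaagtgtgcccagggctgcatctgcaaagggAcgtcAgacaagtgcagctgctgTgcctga
MT1G: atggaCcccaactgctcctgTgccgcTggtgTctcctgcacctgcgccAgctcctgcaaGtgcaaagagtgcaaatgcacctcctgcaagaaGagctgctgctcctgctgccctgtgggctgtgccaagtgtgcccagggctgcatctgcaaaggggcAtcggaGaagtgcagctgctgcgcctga
*MT1X* differed from *MT2A* at 14 bases (92.5% identity) and *MT1G* at 9 bases (95.2%). Identity to *MT2A* was 92.5% for *MT1E*, 91.4% for *MT1F* and 89.8% for *MT1M*, and the least alike pair of members, *MT1F* and *MT1X*, shared 88.7% of bases.

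Paralogs this close can share reads, and how reads that matched several members were counted is not given in the sources used here. The exposure of each gene was measured as the share of all stretches of 31 bases in its principal transcript that also occur in a transcript of another gene. The share was 8.3% for *MT1F*, 12.2% for *MT2A*, 15.3% for *MT1E*, 18.8% for *MT1M*, 31.4% for *MT1G* and 48.1% for *MT1X*. With stretches of 75 bases it was 0% for *MT2A* and *MT1F*, 0.1% for *MT1M*, 0.8% for *MT1E*, 6.6% for *MT1G* and 31.6% for *MT1X*. A 75-base stretch of *MT2A* or *MT1F* was thus found in no other gene. *MT1X* shared 24.5% of its 75-base stretches with the gene model AC026461.1, 5.9% with *MT1G* and 3.5% with the pseudogene *MT1XP1*, and none with *MT2A*. At 31 bases it shared 50 stretches with *MT2A*, 11.9% of its own and 6.6% of those of *MT2A*. The values of *MT1X* and *MT1G* are thus the least certain in this respect.

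**Figure D1:**
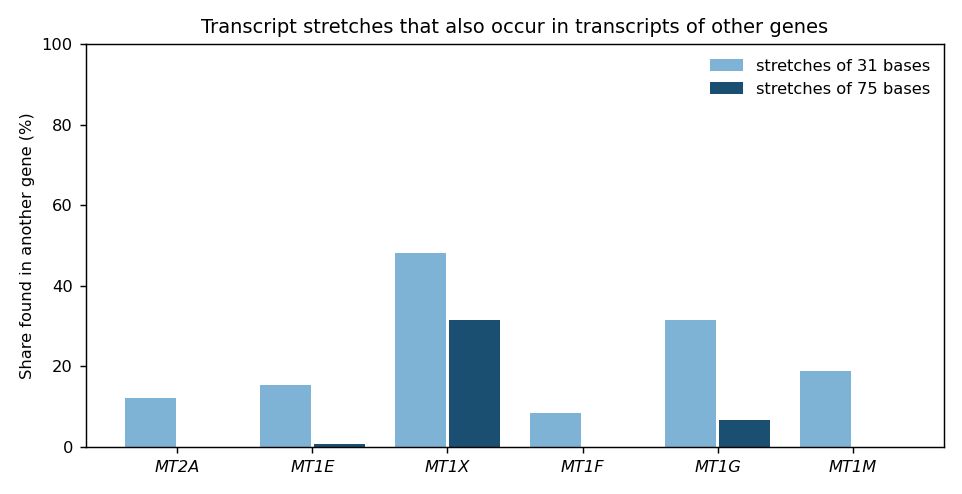
The bars show, for each of the 6 members, the percent of stretches of 31 bases (light) and 75 bases (dark) of its principal transcript that also occur in a transcript of another gene. *MT1X* has the highest shares, 48.1% and 31.6%, and *MT2A* shares 12.2% of the short and 0% of the long stretches.

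The RefSeq promoter table (GRCh38.p14) held 2 of the 6 members, *MT2A* and *MT1X*. The 250 bases before the start of each are shown because these genes moved in opposite directions after d7, with every copy of the metal response element core in capitals. The core was searched on both strands as TGCACNC or TGCGCNC, and matches may touch or overlap.
MT2A, chr16:56608334-56608583, + strand: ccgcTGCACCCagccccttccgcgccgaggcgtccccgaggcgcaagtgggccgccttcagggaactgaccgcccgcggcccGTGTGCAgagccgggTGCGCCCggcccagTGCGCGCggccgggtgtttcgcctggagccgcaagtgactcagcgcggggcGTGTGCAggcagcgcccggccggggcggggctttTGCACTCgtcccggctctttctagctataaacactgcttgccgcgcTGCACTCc
MT1X, chr16:56682220-56682469, + strand: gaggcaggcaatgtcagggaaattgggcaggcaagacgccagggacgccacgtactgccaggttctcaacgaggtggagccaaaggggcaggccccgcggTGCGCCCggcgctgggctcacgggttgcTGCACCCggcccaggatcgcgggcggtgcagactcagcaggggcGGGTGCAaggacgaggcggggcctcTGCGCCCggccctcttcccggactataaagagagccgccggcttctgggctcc
The *MT2A* window held 7 copies and the *MT1X* window held 4. Of all 35116 promoter windows of this length, 24.8% held at least 1 copy, 0.37% held at least 4 and 0.0313% (11 windows) held at least 7. An AP-1 site (TGANTCA), a motif of factors that respond to stress and growth signals, occurred once in the *MT2A* window and 0 times in the *MT1X* window, beside 6.6% of all windows with at least 1. Both windows held 2 copies of the GC box core GGGCGG (at least 2 in 24.3% of windows) and 1 of the antioxidant response element core TGACNNNGC (at least 1 in 10.9%). A match describes the letters of the window and does not show that a factor binds there.

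Values are normalised read counts, the reads of a gene divided by one size factor per library, and the reads behind them totalled between 18847917 and 22667754 per library. The root mean square of the log2 differences between libraries of a timepoint lay between 0.214 and 0.243 at d0, d1, d4, d10, d15 and d20. At d7 the third library lay 0.472 and 0.457 from the other two, and it was nearer to the d4 mean (0.427) than to its own group (0.451), so that the members' changes against d0 at d7 are given with and without it. The summed value of 6 basal markers was between 271000 and 761000 in all libraries, and that of 5 luminal markers between 11490 and 16810. The 3 epithelial markers (*CDH1*, *EPCAM* and *ESRP1*) summed to between 13120 and 13450 at d0 and between 5166 and 5314 at d20. Markers of mammary epithelial cells were thus present in all libraries, with the epithelial sum lower at d20 than at d0. The 5 leukocyte markers summed to at most 71.2, 4 endothelial markers to at most 289.7 and 3 erythroid markers to at most 8.37. The 5 mesenchymal markers rose from between 15980 and 16200 at d0 to between 608500 and 626900 at d20.

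*MT2A* carried most of the family's RNA and swung the most. Its normalised read counts were 22725.5, 24492 and 27283 at d0, 58919, 59699 and 59684 at d1, and 53539, 60379 and 49847 at d4. They were 22923, 20291 and 44658 at d7, and 67458, 72061 and 71931 at d10. They were 21261, 17011 and 20327 at d15, and 56141, 52217 and 50927 at d20. All libraries of d1, d4, d10 and d20 thus lay above every untreated library, those of d15 lay below every untreated library, and those of d7 were split. Against d0, *MT2A* rose 2.40-fold at d1 (log2 fold change 1.26, standard error 0.17, limma, adjusted p = 2.09e-06), 2.20-fold at d4 (1.14, adjusted p = 5.11e-06) and 2.84-fold at d10 (1.51, adjusted p = 1.18e-07). It was still 2.14-fold higher at d20 (1.10, adjusted p = 1.09e-05, limma). In bulk RNA, more transcripts in each cell and more cells with transcripts cannot be told apart.

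Between these high points *MT2A* dropped back. From d10 to d15 it fell by 1.86 on the log2 scale (standard error 0.17, limma, adjusted p = 2.58e-09), a 3.62-fold difference, and from d15 to d20 it rose 2.73-fold (1.45, adjusted p = 1.66e-07). At d15 its value against d0 was -0.35 (95% interval -0.71 to 0.01, limma, adjusted p = 0.0721), which misses the threshold. It was called lower there with library totals made equal (-0.51, adjusted p = 0.0121), with quantile normalization (-0.60, adjusted p = 0.00331) and with only d0 and d15 in the limma fit (adjusted p = 1.29e-05). It was also called lower at d15 without the third library of d7 (adjusted p = 9.32e-07) or without the second (0.0338), because these libraries enter the shared estimate of spread, and not by edgeR (adjusted p = 0.0796) or DESeq2 (0.17). At d7 the change against d0 was 0.15 (95% interval -0.21 to 0.51, limma, adjusted p = 0.453), and without the third library it turned to -0.20 (adjusted p = 0.00611). Its sign at d7 also turned with equal library totals (-0.04) and quantile normalization (-0.11), neither of which was called. Ordered by mean, the timepoints ran d15, d0, d7, d20, d4, d1 and d10. The library ranges overlapped between d0 and d7, d20 and d4, and d4 and d1, and stood apart for the other 3 neighbours.

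*MT1X* followed another course. Its normalised read counts were 446, 512 and 520.4 at d0, 701, 657 and 651 at d1, and 1106, 1205 and 1054 at d4. They were 1179.8, 1103 and 671 at d7, and 563, 598 and 565 at d10. They were 1296, 1143 and 1276 at d15, and 525, 497 and 453 at d20. The d4 and d15 libraries were the high ones, with no overlap with d0, d1, d10 or d20, and the d20 libraries overlapped with d0. Against d0, *MT1X* rose 2.28-fold at d4 (log2 fold change 1.19, standard error 0.13, limma, adjusted p = 5.68e-08) and 2.51-fold at d15 (1.33, adjusted p = 7.24e-09). The rise at d1 was smaller (0.44, limma, adjusted p = 0.00618) and lost the threshold when library totals were made equal (0.25, adjusted p = 0.0863). At d7 it was 0.96 higher (limma, adjusted p = 1.62e-06), and 1.21 (adjusted p = 3.04e-19) without the third library. At d10 the value was 0.23 (95% interval -0.05 to 0.50, limma, adjusted p = 0.134), although the 3 libraries lay above all of d0. It was called higher there with only d0 and d10 in the limma fit and without the third library of d7 (lowest adjusted p = 0.00102). No other alternative tried gave a call at d10, and the value went down to 0.00. At d20 the change of *MT1X* was 0.00 (95% interval -0.28 to 0.27, limma, adjusted p = 0.986).

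**Figure D2:**
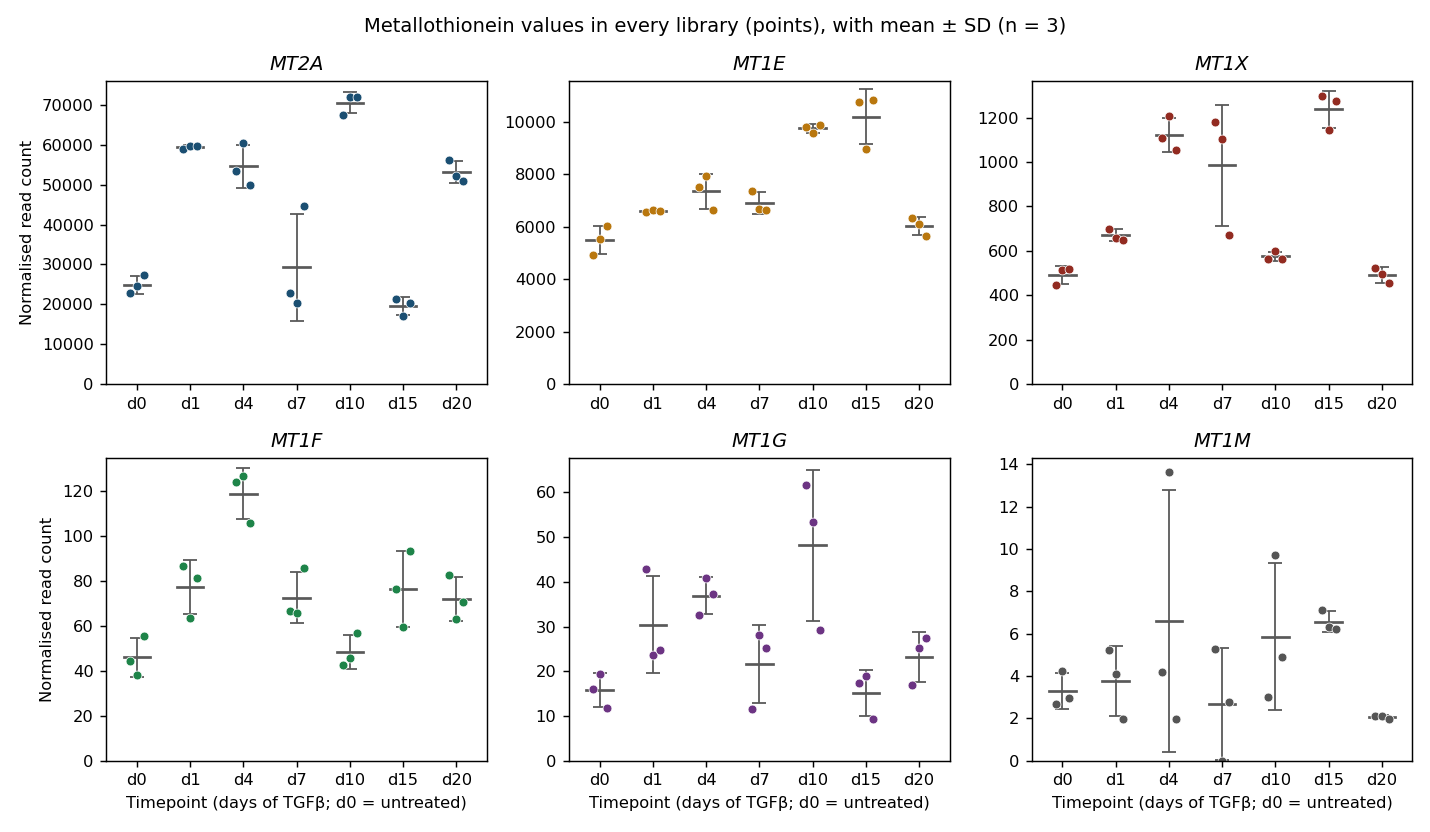
Each panel shows 1 member, with the normalised read count (y axis, from 0) by timepoint (x axis), 1 point per library and the mean ± SD of 3 libraries. *MT2A* is high at d1, d4, d10 and d20 and *MT1X* at d4, d7 and d15, and at d7 the third library of *MT2A* and *MT1X* lies apart from the other two.

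The pair thus moved in opposite directions over the later intervals. From d7 to d10 *MT2A* rose by 1.36 (limma, adjusted p = 5.04e-07) while *MT1X* fell by 0.73 (adjusted p = 4.18e-05). From d10 to d15 *MT2A* fell by 1.86 (limma, adjusted p = 2.58e-09) while *MT1X* rose by 1.10 (adjusted p = 1.19e-07). From d15 to d20 *MT2A* rose by 1.45 (limma, adjusted p = 1.66e-07) while *MT1X* fell by 1.33 (adjusted p = 9.54e-09). These 6 log2 differences kept their direction and their call under all 28 alternatives tried for each. Of these, 21 left out 1 library each. Where that library was of another timepoint, the difference itself could not change, only the shared spread. The alternatives gave -1.92 to -1.76 for *MT2A* and 1.07 to 1.19 for *MT1X* from d10 to d15. Without the third library of d7, the differences from d7 to d10 were 1.71 and -0.99.

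Within a library the ratio of the pair does not depend on scaling. The log2 ratio of *MT1X* to *MT2A* was -5.65 ± 0.068 (SD, n = 3) at d0, -6.47 ± 0.068 at d1 and -5.60 ± 0.041 at d4. It was -4.84 ± 1.0 at d7, with a range from -6.05 in the third library to -4.20, and -6.93 ± 0.048 at d10. It was -3.97 ± 0.072 at d15 and -6.75 ± 0.049 at d20. The 3 libraries of d15 had the highest ratios of all 21. Since the ratio went both ways, the 18 treated libraries as a whole were not separated from the 3 untreated ones, with a mean difference of -0.11 (two-sided exact permutation p = 0.909) and 10 libraries below and 6 above the untreated range. For the other 4 ratios to *MT2A* the test over all 6 days pooled was not passed either. The difference was -0.32 for *MT1E* (exact permutation p = 0.534), -0.10 for *MT1F* (0.839), -0.07 for *MT1G* (0.838) and -0.63 for *MT1M* (0.37). All 18 treated libraries lay outside the untreated range for *MT1E* (13 below, 5 above), 17 for *MT1F* (9 below, 8 above) and for *MT1M* (12 below, 5 above), and 8 for *MT1G* (4 on each side). All 5 had an adjusted p of 0.909 (exact permutation), where the smallest p that 18 libraries against 3 allow is 0.000752.

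**Figure D3:**
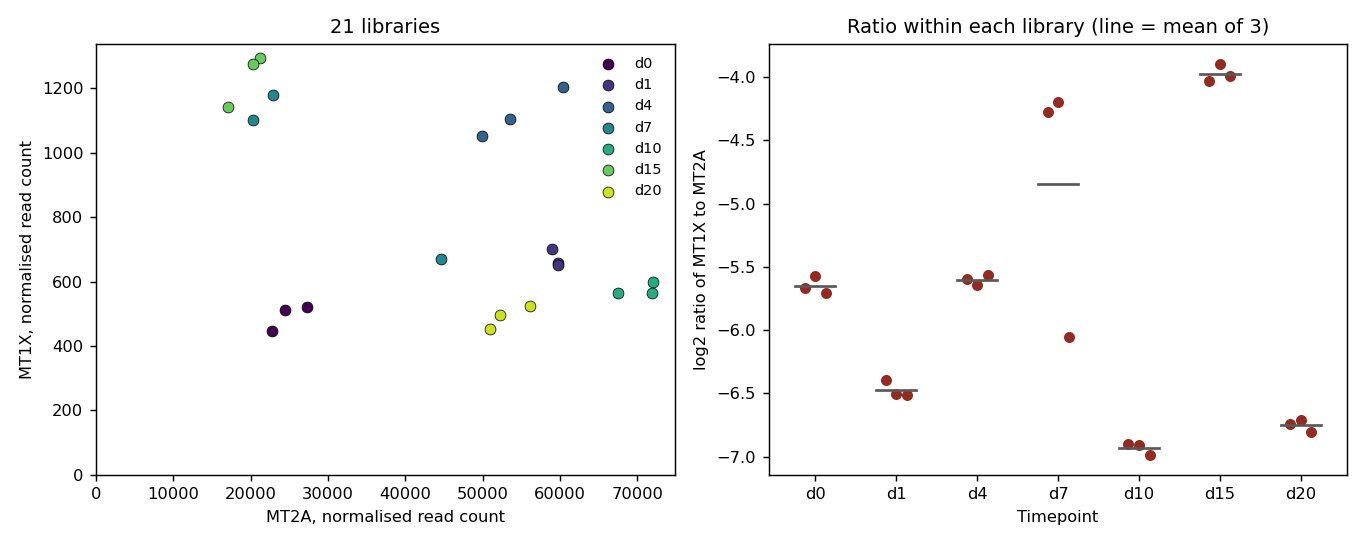
Left, the normalised read count of *MT1X* (y) against that of *MT2A* (x) in the 21 libraries, coloured by timepoint. Right, the log2 ratio of *MT1X* to *MT2A* in each library with the mean of each timepoint as a line, from -6.93 at d10 to -3.97 at d15.

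*MT1E*, the second metallothionein of these cells, climbed more steadily. Its normalised read counts were 4928, 5545 and 6009.6 at d0, 6560.1, 6649 and 6603 at d1, and 7513, 7928 and 6625 at d4. They were 7368, 6667 and 6629.6 at d7, and 9791, 9572 and 9892 at d10. They were 10765, 8974 and 10818 at d15, and 6325, 6121 and 5639 at d20. All treated libraries except 1 of d20 lay above the untreated ones. Against d0, *MT1E* rose by 0.83 on the log2 scale at d10 (standard error 0.07, limma, adjusted p = 2.83e-09) and by 0.89 at d15 (adjusted p = 5.32e-10), which is 1.78-fold and 1.85-fold. The changes were 0.27 at d1 (limma, adjusted p = 0.00384), 0.42 at d4 (adjusted p = 3.49e-05) and 0.33 at d7 (adjusted p = 0.000585), the last being 0.36 without the third library. Making the library totals equal reduced them to 0.08 at d1 (limma, adjusted p = 0.349) and 0.14 at d7 (0.0893), neither of which passed, and quantile normalization gave 0.10 at d1 (0.276). From d15 to d20 it fell by 0.75 (limma, adjusted p = 1.07e-08), so that d20 was 0.14 above d0 (95% interval -0.02 to 0.29, adjusted p = 0.118). That change at d20 was called with only d0 and d20 in the limma fit (adjusted p = 0.0154). It was also called without the third library of d7 (0.03) or the third of d0 (0.0329, limma). With equal library totals it was -0.06 and with quantile normalization -0.02, neither of which was called. At d15 *MT1E* and *MT2A* thus stood at their highest and lowest means.

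*MT1F* was a low gene with a single clear peak. Its normalised read counts were 44.5, 38.2 and 55.4 at d0, 86.8, 63.6 and 81.4 at d1, and 124.1, 126.6 and 105.8 at d4. They were 66.5, 65.7 and 85.6 at d7, and 42.8, 45.7 and 56.7 at d10. They were 76.5, 59.7 and 93.2 at d15, and 82.7, 63.2 and 70.5 at d20. The d4 libraries were above all others, and those of d10 overlapped with d0. Against d0, *MT1F* rose 2.57-fold at d4 (log2 fold change 1.36, standard error 0.18, limma, adjusted p = 7.27e-07). It was also higher at d1 (0.74, limma, adjusted p = 0.00132), d7 (0.65, adjusted p = 0.00309, and 0.53 without the third library), d15 (0.71, adjusted p = 0.00116) and d20 (0.64, adjusted p = 0.00372). At d10 it was 0.08 (95% interval -0.30 to 0.45, limma, adjusted p = 0.719). Its difference from d7 to d10 (-0.57) was not called under quantile normalization (-0.19, limma, adjusted p = 0.384), and neither was that from d10 to d15 (0.64, then 0.28, adjusted p = 0.182).

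*MT1G* was lower still and more scattered, and, like *MT2A*, was high at d1, d4 and d10. Its normalised read counts were 16, 19.5 and 11.9 at d0, 42.9, 23.6 and 24.8 at d1, and 32.6, 40.9 and 37.2 at d4. They were 11.6, 28.2 and 25.1 at d7, and 61.7, 53.4 and 29.3 at d10. They were 17.3, 19 and 9.32 at d15, and 17, 25.3 and 27.4 at d20. The libraries of d1, d4 and d10 lay above all of d0, with a wide spread, and those of d7, d15 and d20 overlapped with d0. Against d0, *MT1G* rose 2.29-fold at d4 (log2 fold change 1.19, standard error 0.34, limma, adjusted p = 0.0037) and 2.85-fold at d10 (1.51, adjusted p = 0.000532). The rise at d1 (0.88, limma, adjusted p = 0.0316) did not pass when 1 of 3 libraries was left out (d0 library 1, 0.90, d0 library 3, 0.70, or d1 library 1, 0.61). It also failed with no filter on low values (adjusted p = 0.0535, limma) or with equal totals (0.0781). From d10 to d15 *MT1G* fell by 1.59 (limma, adjusted p = 0.000232). Its fall from d4 to d7 (-0.83, limma, adjusted p = 0.0479) was called in 11 of 28 alternatives and was -0.45 without the first library of d7.

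*MT1M* was at the edge of detection. Its normalised read counts were 2.67, 4.24 and 2.97 at d0, 5.23, 4.1 and 1.98 at d1, and 4.21, 13.6 and 1.96 at d4. They were 5.28, 0 and 2.79 at d7, and 2.99, 9.72 and 4.89 at d10. They were 7.14, 6.33 and 6.22 at d15, and 2.12, 2.1 and 1.96 at d20. The d15 libraries lay above and the d20 libraries below all of d0, on at most 7 and 2 reads per library. The gene was below the mean value of 10 required for the main test. In limma without that filter no contrast passed, with the lowest adjusted p of 0.0607 for d20 against d15, and DESeq2 gave 0.0923 for the same contrast. No difference in *MT1M* was called in the fits that held it, on counts this low.

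Divided by transcript length, the order of the members was almost fixed. At d0 the level per kilobase was 31600 ± 2900 (SD, n = 3) for *MT2A*, 7800 ± 770 for *MT1E* and 1100 ± 91 for *MT1X*. It was 66.7 ± 13 for *MT1F*, 38.9 ± 9.4 for *MT1G* and 3.97 ± 1.0 for *MT1M*. This rank order held at all 7 timepoints except that *MT1G* (119 ± 41 per kilobase) passed *MT1F* (70.1 ± 11) at d10. *MT2A* made up 77.8% ± 0.41 of the summed per-kilobase level of the 6 members at d0, 87.2% ± 0.13 at d1, 85.4% ± 0.53 at d10 and 87.3% ± 0.31 at d20, but 58.8% ± 0.68 at d15. *MT1E* made up 19.2% ± 0.32 at d0, 11.1% ± 0.29 at d20 and 34.3% ± 0.53 at d15, and *MT1X* 2.7% ± 0.12, 1.41% ± 0.044 and 6.54% ± 0.28. Together the 6 genes took 0.167% ± 0.014 of all reads at d0, 0.375% ± 0.012 at d10 and 0.282% ± 0.015 at d20 but 0.151% ± 0.016 at d15. This last total was thus near that of untreated cells, with a different split among the genes.

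Of the 5 members tested, none was called lower than d0 on any day in limma. At d1 and d4 all 5 were called higher, where 31.3% and 36.9% of all 13343 genes tested were called higher and 28.5% and 35.3% lower. At d7 *MT1E*, *MT1F* and *MT1X* were higher (3 of 5; 34.6% of all genes higher, 32.6% lower), and at d10 *MT1E*, *MT1G* and *MT2A* (3 of 5; 37% higher, 30.7% lower). At d15 *MT1E*, *MT1F* and *MT1X* were higher (3 of 5; 39.2% higher, 37.3% lower), and at d20 *MT1F* and *MT2A* (2 of 5; 32.5% higher, 30.2% lower). Without the third library of d7, the same 3 members were higher there and *MT2A* was lower. The 5 members had a median log2 fold change of 0.74 (d1), 1.19 (d4), 0.37 (d7), 0.83 (d10), 0.71 (d15) and 0.53 (d20), where that of all genes was between 0 and 0.03. Making the library totals equal shifted the median of all genes by -0.20 to -0.14 and left 2 members called higher at d1, *MT1F* and *MT2A*.

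**Figure D4:**
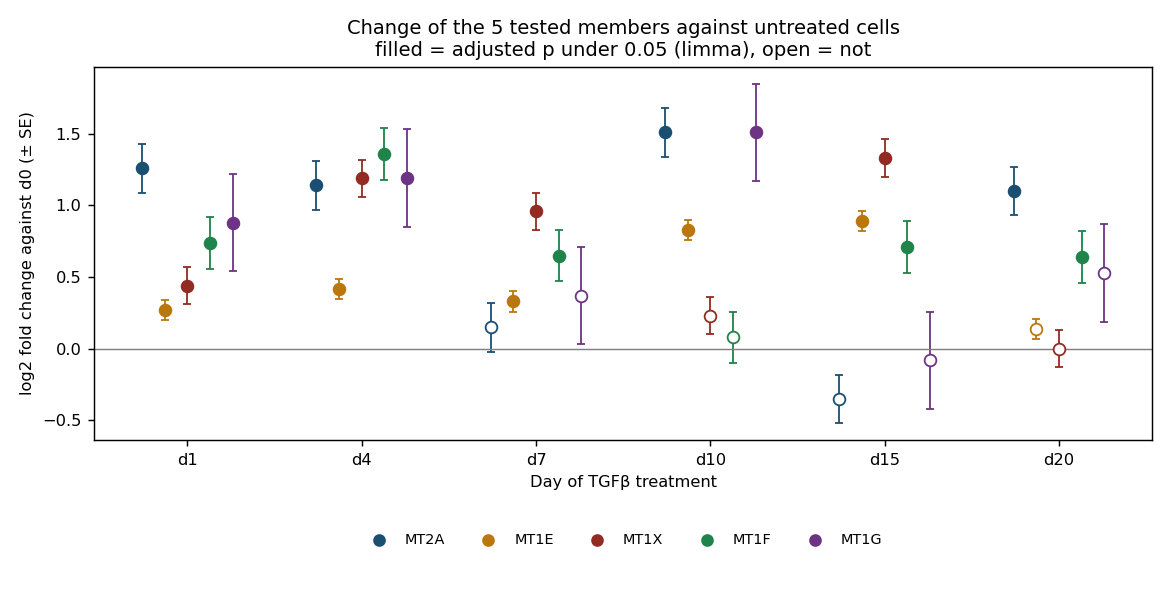
Log2 fold change against d0 (y axis, ± SE) of the 5 tested members on each treated day, filled where the limma adjusted p was under 0.05. All 5 are filled at d1 and d4, *MT2A* and *MT1G* are highest at d10 (1.51 each) and *MT1X* at d15 (1.33).

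Between successive timepoints the calls went both ways. From d1 to d4, 2 of 5 members rose, *MT1F* and *MT1X* (32.9% of all genes rose, 32% fell), and from d4 to d7, 3 fell, *MT1F*, *MT1G* and *MT2A* (25.5% rose, 25.5% fell). From d7 to d10, 3 rose and 2 fell (36.2% rose, 35.2% fell), and from d10 to d15, 2 rose and 2 fell (39.3% rose, 40.5% fell). From d15 to d20, 1 rose and 2 fell (37.7% rose, 36.3% fell). As a description over the 21 libraries, which share timepoints and size factors, *MT2A* went with *MT1G* (Pearson r = 0.72) and not with *MT1X* (-0.39), *MT1E* (0.01) or *MT1F* (0.19). *MT1X* went with *MT1F* (0.59) and *MT1E* (0.53).

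The rest of the family was nearly silent except for 1 pseudogene. Of the 9 other metallothionein genes and pseudogenes in the data, only *MT1L* passed the filter on low values, and *MT1A*, *MT1H*, *MT1DP*, *MT1JP*, *MT3* and *MT4* never exceeded 3 reads in a library, *MT1B* reached 4 and *MT1IP* 20. *MT1L*, which lies next to *MT2A*, had values of 185, 159 and 189.96 at d0, 449, 409 and 429 at d10, 210.1, 176 and 199 at d15, and 648, 639 and 529.8 at d20. Its course was close to that of *MT2A* (r = 0.83 over the 21 libraries), with a rise of 1.27 at d10, 0.13 at d15 (limma, adjusted p = 0.47) and 1.76 at d20 (adjusted p = 6.17e-09). It shared 16.3% of its 31-base stretches with other genes, 0% of its 75-base stretches, and none of either length with *MT2A*.

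Genes of zinc transport were read from fixed lists, beside 63.2% of all genes tested that were called higher and 62.4% that were called lower on at least 1 day. Of 7 tested genes in the list of MTF1 and zinc exporters, 5 were higher and 3 lower on at least 1 day, but 3 higher and 5 lower with equal library totals. *SLC30A4*, which loads zinc into vesicles, was higher on all 6 days (log2 fold changes of 0.80 to 1.68), as was *SLC30A7* of the Golgi (0.18 to 0.63, the lowest being d7, which was 0.09 and not called without the third library), and *SLC30A9* was lower on all 6 (-0.47 to -0.26). *MTF1* itself, outside the naming rule, was called higher at d4 (0.25) and d10 (0.14) and lay between 0.01 and 0.12 on the other days. *SLC30A1*, singled out after its values were seen, stood at 224, 231 and 236 at d0, and 414, 424 and 416 at d4. The d7 libraries were at 454, 506 and 257, the last being the third library, and those of d10 at 222, 242 and 225. It reached 536, 508 and 517 in the d15 libraries and 225, 202 and 170.4 in those of d20. Its log2 fold changes were 0.86 at d4, 0.75 at d7 (1.05 without the third library) and 1.17 at d15, all 3 called, and -0.21 at d1, -0.01 at d10 and -0.22 at d20. It thus went with *MT1X* (r = 0.93 over the 21 libraries) and against *MT2A* (-0.59). An r of this size with *MT1X* was not particular to *SLC30A1*. In the other lists *STEAP3* had 0.91, *SOD1* -0.96 and *NQO1* -0.92.

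**Figure D5:**
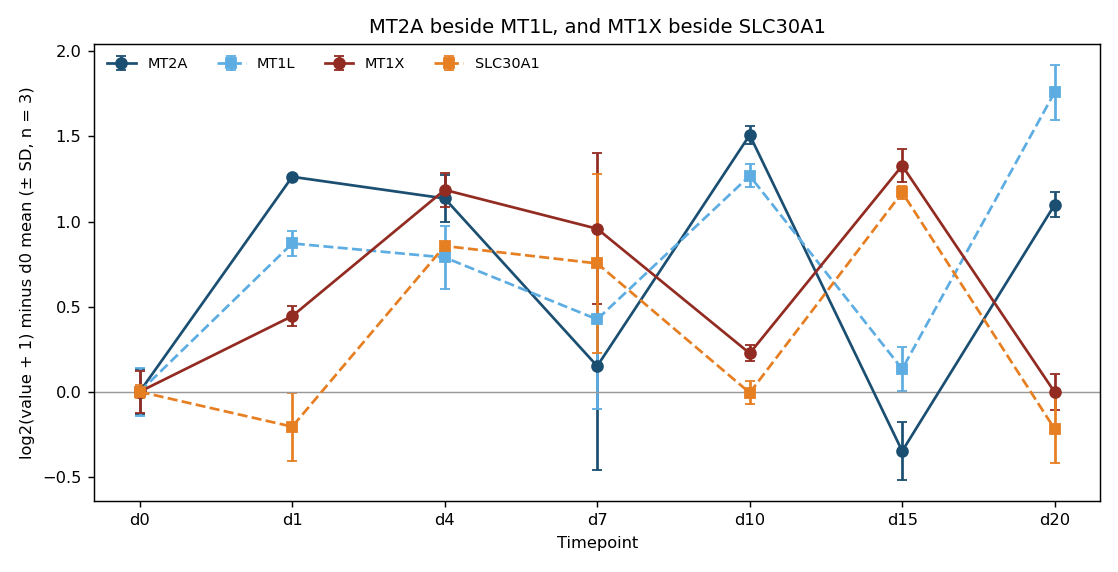
The y axis is log2(value + 1) minus the d0 mean (± SD, n = 3) by timepoint for *MT2A*, its neighbour *MT1L*, *MT1X* and the zinc exporter *SLC30A1*. *MT2A* and *MT1L* are high at d10 and d20, where *MT1X* and *SLC30A1* are near 0, and the reverse holds at d15.

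Of 11 zinc importers tested, 10 were higher and 4 lower on at least 1 day, and 6 were higher on all 6 days, where 14.3% of all genes tested were higher and 8.26% lower on all 6. These were *SLC39A4* (log2 fold changes of 0.58 to 1.09), *SLC39A6* (0.19 to 0.77), *SLC39A7* (0.27 to 0.91), *SLC39A8* (0.34 to 1.38), *SLC39A13* (0.95 to 1.4) and *SLC39A14* (0.50 to 0.92). The call of *SLC39A6* at d20 was at the threshold (0.19, limma, adjusted p = 0.0498). The count over all 6 days was not repeated with equal library totals. *SLC39A8* and *SLC39A14* carry zinc and other metals across the plasma membrane, and *SLC39A7* and *SLC39A13* release it from the secretory pathway. At d7 the change of *SLC39A8* was 0.34, and 0.22 without the third library, called in both fits. Of these 6, *SLC39A8* and *SLC39A13* had an r above 0.5 with *MT2A* (0.73 and 0.66), and *SLC39A6*, *SLC39A14* and *SLC39A7* with *MT1X* (0.79, 0.64 and 0.63). Among the other importers tested, *SLC39A10* (0.86) and *SLC39A3* (0.74) were closer still to *MT2A*. *SLC39A9* (0.63), *SLC39A1* (0.61) and *SLC39A11* (0.61) had an r above 0.5 with *MT1X*.

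Other metals and stress lists moved both ways. Of all genes tested, 63.2% were called higher and 62.4% lower on at least 1 day, and 14.3% were higher and 8.26% lower on all 6. Of 10 tested copper genes, 6 were higher and 7 lower on at least 1 day. The copper transporter *SLC31A2* was higher on all 6 days (0.27 to 0.67) and the copper pump *ATP7A* lower on 5 (-0.76 to -0.23), with -0.08 at d7 (limma, adjusted p = 0.483). Of 9 iron genes, 7 were higher and 6 lower, with *HMOX1*, the haem-degrading enzyme, at 0.54 to 2.36 and the reductase *STEAP3* at 0.53 to 1.75 on all 6 days, and the transferrin receptor *TFRC* (-1.08 to -0.25) and *IREB2* (-0.41 to -0.28) lower on all 6. All 10 glutathione and antioxidant genes were lower on at least 1 day and 4 were higher on at least 1, and *GCLC* of glutathione synthesis (-1.48 to -0.52), *GSR* of glutathione recycling (-1.43 to -0.77) and the catalase gene *CAT* (-1.11 to -0.31) were lower on all 6. Of 10 chaperone genes, 8 were higher and 9 lower on at least 1 day, with *HSF1*, the heat shock factor, at 0.32 to 0.68 on all 6 days and *BAG3* at -0.12 to 0.78.

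Of 10 genes of the glucocorticoid response, 8 were higher and 7 lower on at least 1 day, beside 63.2% and 62.4% of all genes tested. The glucocorticoid receptor gene *NR3C1* (0.23 to 0.70) and the kinase gene *SGK1* (0.26 to 1.07) were higher on all 6 days, the phosphatase gene *DUSP1* ran from -0.07 at d10 to 3.70 at d15, and *FKBP5* (-1.04 to -0.44) and *CEBPD* (-1.76 to -0.57) were lower on all 6. *TSC22D3*, the glucocorticoid-induced leucine zipper gene, was singled out after its values were seen. Its log2 fold change was 0.79 at d4, 0.39 at d7 (0.68 without the third library) and 1.63 at d15, but -1.53 at d1, -1.93 at d10 and -0.49 at d20. It went against *MT2A* (r = -0.75 over the 21 libraries) and with *MT1X* (0.71). *PER1*, *ZBTB16*, *DUSP1* and *KLF9* did likewise (-0.82 to -0.56 and 0.72 to 0.86). The rest of the list did so mainly for 1 of the pair, less closely or not at all. With *MT2A* and *MT1X*, r was -0.81 and 0 for *FKBP5*, -0.85 and 0.19 for *CEBPD*, and -0.03 and -0.44 for *ERRFI1*. It was -0.29 and 0.84 for *NR3C1*, and -0.34 and 0.53 for *SGK1*. A part of glucocorticoids in the metallothionein results was not tested.

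Other features of the cells moved with this pair. The summed value of 6 proliferation genes was between 46680 and 48080 at d0, 36140 and 37670 at d1, 27840 and 29140 at d4, and 41060 and 42160 at d10. It was between 15770 and 16110 at d15 and between 45500 and 47180 at d20, and over the 21 libraries it went against *MT1X* (r = -0.85) and less with *MT2A* (0.47). At d7 it was 33430, 34250 and 43000, the last in the library that stands apart. The summed basal markers were between 345200 and 369400 at d0, 271000 and 278200 at d10, and 540100 and 559600 at d15. At d7 they were 761000, 710700 and, in the third library, 399400. Over the 21 libraries this sum went with *MT1X* (0.79) and against *MT2A* (-0.74). The keratin genes *KRT5*, *KRT14* and *KRT17* made up most of it, and its members did not all move alike. *KRT17* had means of 13310 at d10 and 186700 at d15, and *KRT5*, *KRT14* and *TP63* were also lower at d10 than at d15. *ITGA6* (25310 and 13790) and *LAMB3* (62440 and 50630) were higher at d10. Summed, the 4 endothelial markers also went with *MT1X* (0.72) and against *MT2A* (-0.89). Their sum was between 268.3 and 289.7 at d15, between 22.9 and 23.5 at d10, and 244.8, 207.5 and 67 at d7. Of these markers *KDR*, a growth factor receptor gene, had means of 42.1 at d0, 2.94 at d10 and 263 at d15. *PECAM1* had means of 41.3, 14.7 and 9.06 at these timepoints and was highest in untreated cells. *VWF* had at most 13 reads in a library, and *CDH5*, which defines endothelial cells, at most 1. The part of these features in the metallothionein results was not tested. The 5 mesenchymal markers, by contrast, were related less closely to *MT2A* (0.33) and *MT1X* (0.43).

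The genes most like the family were found by the Pearson r of log2 values with the mean of the 5 tested members over the 21 libraries. They were *CAMK2N1* (0.953), *STX1A* (0.942), *ZNF526* (0.936), *PHC2* (0.936) and *CD44* (0.935), and the least alike were *CPT2* (-0.947), *TMEM218* (-0.93) and *C22orf46* (-0.928). Taken one by one, the members had different partners. The nearest gene outside the family was *CAPN2* for *MT2A* (0.977), *THBD* for *MT1X* (0.975), *BRPF1* for *MT1E* (0.931), *PPP4R1L* for *MT1F* (0.856) and *TUSC3* for *MT1G* (0.849). These are the extremes of 13343 genes and describe these libraries only.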

How the data were processed

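RNA was measured in 21 libraries of HMLE cells, 3 at each of 7 timepoints. The authors deposited 1 table of a normalised signal per gene and library. Its values show that this deposited signal is a whole number of reads over a size factor that is the same for all genes of a library, rounded to 2 decimals. Per the submitters' processing notes, STAR 2.7, Salmon 1.4 and the build hg19 were used, with no role stated. Whole reads were recovered for 100% of values. For the 13343 genes with a mean of at least 10, limma 3.58.1 (eBayes with a trend, R 4.3.3) was fitted to log2(value + 1), each timepoint having its own mean. Adjustment was by Benjamini-Hochberg over all genes of a contrast, and adjusted p under 0.05 was called. Fold changes are on the log2(value + 1) scale, which understates those of low genes. Ratios were compared by exact permutation tests. The study states that this time course had biological triplicates, but the columns carry no replicate numbers.

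On simulated d1 against d0 data with 13341 genes tested, limma recovered 76% of 100 genes changed 1.5-fold and 96% of 99 changed 2-fold, with 5 unchanged genes called. The simulated reads had the same dispersion for every gene, most genes unchanged and no outlying library at d7. In the data many genes changed and the third library of d7 widened the shared spread, so these shares may not hold for the real fit. edgeR 4.0.16 and DESeq2 1.42.0 on the recovered reads were alternatives. The members and gene lists were chosen with earlier results of these data known. Named were all members, list genes called on all 6 days in one direction or with the 2 largest mean changes in their list, and the genes most alike. Transcripts came from GENCODE release 29 and promoters from RefSeq, both of another build than the reads, so no coordinates were matched to the data. Coding sequences were aligned with Biopython 1.88, and figures were drawn with matplotlib 3.10.9. Lists of 14 other metallothioneins, 11 zinc exporter, 14 zinc importer, 11 copper and 10 genes in each other list were fixed.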

Additional observations from a re-analysis of the deposited data

Results flagged for a closer look

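Between successive treated timepoints, calls were common among all 13343 genes tested. From d1 to d4, 32.9% rose and 32% fell, and from d4 to d7, 25.5% and 25.5%. From d7 to d10 the shares were 36.2% and 35.2%, from d10 to d15 39.3% and 40.5%, and from d15 to d20 37.7% and 36.3%. A call alone thus does not set a member apart. Among the 5 tested members, 17 differences between the effects at successive treated timepoints passed the direct test (limma, adjusted p under 0.05). All effects were against the same untreated libraries, and the causes of these differences were not tested. For *MT2A* they were -0.99 from d4 to d7, 1.36 from d7 to d10, -1.86 from d10 to d15 and 1.45 from d15 to d20. For *MT1X* they were 0.74 from d1 to d4, -0.73 from d7 to d10, 1.10 from d10 to d15 and -1.33 from d15 to d20. For *MT1E* they were 0.50 from d7 to d10 (0.48 without the third library of d7) and -0.75 from d15 to d20. For *MT1F* they were 0.62 from d1 to d4, -0.71 from d4 to d7, -0.57 from d7 to d10 and 0.64 from d10 to d15. For *MT1G* they were -0.83 from d4 to d7, 1.14 from d7 to d10 and -1.59 from d10 to d15. Those that involve d7 shifted without the third library of that day, to -1.34 and 1.71 for *MT2A*, -0.99 for *MT1X*, -0.83 and -0.45 for *MT1F*, and -0.98 and 1.29 for *MT1G*. The rise of *MT1G* from d7 to d10 was 0.77 without the first library of d7 (limma, adjusted p = 0.0506).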

How the results depend on the processing

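Of 2346 alternative values for 98 results, 2272 kept their direction and call, or their count within 1.5 times. Part of this agreement was built in. Leaving out a library of a timepoint outside a contrast can act only through the shared spread, and ratios within a library do not depend on library totals. A further threshold of 1 on the absolute log2 fold change left 1 member higher at d1, 0 at d7, 1 at d15 and 1 at d20. It left 0 higher from d1 to d4, 0 lower from d4 to d7, 0 lower from d7 to d10, 1 higher from d10 to d15 and 1 lower from d15 to d20. Making the library totals equal left 2 members higher at d1 and made 1, *MT2A*, lower at d15. It also changed the zinc exporter list to 3 higher and 5 lower, the iron list to 4 higher and the glutathione list to 2 higher on at least 1 day. Quantile normalization gave 1 member lower at d15, 1 lower from d7 to d10, 2 higher from d15 to d20 and 4 iron genes higher. With only the 2 groups compared, 1 member was lower at d15 and 1 from d1 to d4. When libraries were left out one at a time, the number of members lower ranged from 0 to 1 at d7, at d15 and from d1 to d4, with 1 without the third library of d7 in each case, and *MT2A* at d7 ranged from -0.20 (without that library, a reversal) to 0.37 (without the second). Leaving the third library of d7 out of the list counts was chosen after seeing the data, and no list count moved by over 1.5 times. The share of called genes that were higher was 52.3% at d1 and 26.7% with equal totals, and 54.6% and 29.8% at d10.

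No paired analysis was possible because nothing in the table numbers the replicates, so the fit with a replicate block was not run. Depth limited *MT1M*, with 0 to 14 reads per library, and *MT1G*, with 9 to 62.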
